A study of Mus musculus with 2 samples.

Results

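The Mir23, Mir27 and Mir24 genes form a cluster on mouse chromosome 8 (Mir23a, Mir27a, Mir24-2) and a paralogous cluster on chromosome 13 (Mir23b, Mir27b, Mir24-1), with Mir3074-1 on the strand opposite Mir24-1. The 7 genes were chosen by name in the GENCODE mouse annotation, and 6 of them were found among the 1973 gene rows of each count table. Mir24-1 had no row of its own. The data are microRNA counts of whole liver from B6NCrl mouse embryos at embryonic day 16.5, when the liver is both a blood-forming and a developing metabolic organ. There was 1 group, with healthy embryos and no treatment named in the labels. It was sampled as 2 biological replicates of pooled male and female livers, 41 embryos for replicate 2 and an unstated number for replicate 1. Counts on the rows' own strand came to 5102289 in replicate 2 and 5930074 in replicate 1. A pooled whole organ cannot tell which cells a count came from, nor fewer cells of a type from less RNA per cell.

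MicroRNAs are cut from hairpin precursors as short strands that guide the repression of messenger RNAs, which they find mainly through the seed at bases 2 to 8. The hairpins of a cluster are cut from a shared primary transcript. miR-23 and miR-27 are known for roles in blood vessel growth, and miR-27 also for lipid metabolism. The chromosome 8 cluster is known in mouse for favouring myeloid over B-cell development. In mouse fetal liver cells, miRNAs of the chromosome 13 cluster are known to repress SMAD proteins of the TGF-beta pathway. miR-24 is known to repress an activin receptor in human blood-forming cells.

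The mature strands are printed because they decide which reads can be told apart between the clusters. All 7 genes had a hairpin entry in RefSeq (GRCm38.p6, the mm10 assembly), with 11 different mature miRNAs. They are written 5′ to 3′, with the seed in capitals. miR-23b-3p is named only.
miR-23a-3p: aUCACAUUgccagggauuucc
miR-23a-5p: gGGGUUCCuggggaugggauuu
miR-23b-5p: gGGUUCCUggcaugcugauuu
miR-27a-3p: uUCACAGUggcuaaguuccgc
miR-27b-3p: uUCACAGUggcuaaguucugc
miR-27a-5p: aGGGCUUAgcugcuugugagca
miR-27b-5p: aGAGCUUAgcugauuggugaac
miR-24-3p: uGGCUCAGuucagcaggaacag
miR-24-2-5p: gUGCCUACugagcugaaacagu
miR-24-1-5p: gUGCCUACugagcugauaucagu
miR-3074-5p: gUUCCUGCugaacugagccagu

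miR-27a-3p and miR-27b-3p share a seed and differ by C19U, with positions counted from 1 at the 5′ end, so a read of their first 18 bases is found in both hairpins. The first 18 bases of miR-23a-3p also occur in the hairpin of another member, Mir23b. The 5′ strands of Mir27a and Mir27b do not share a seed. Those of Mir24-2 and Mir24-1 do, and their first 16 bases are identical. No further mature miRNA of the table has the seed of miR-27a-3p. The seed of miR-24-3p also occurs in mature strands of Mir6413, Mir6410, Mir6369 and Mir5124b, each of which had 0 counts in both libraries, where a count of 0 allows up to 3 counts.

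miR-24-3p has the same sequence in both Mir24 hairpins, and no read of the whole strand can be assigned to either. The Mir24 hairpins are printed below with the longest stretch they share, 28 bases that include all of miR-24-3p, in capitals (chr8:84208815-84208921 and chr13:63301208-63301275 of mm10, both plus strand).
Mir24-2: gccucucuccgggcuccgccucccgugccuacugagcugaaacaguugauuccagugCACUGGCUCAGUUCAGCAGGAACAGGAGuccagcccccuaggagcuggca
Mir24-1: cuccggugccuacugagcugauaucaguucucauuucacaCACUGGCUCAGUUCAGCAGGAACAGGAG

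The reverse complement of miR-24-3p shares a run of 20 bases with miR-3074-5p, the strand cut from the opposite side of the locus. miR-3074-5p is itself found in 2 hairpins, Mir3074-1 on chromosome 13 and Mir3074-2 opposite Mir24-2 on chromosome 8. Of all 18-base words in the hairpins, 14.4% of those of Mir24-2 and 19.1% of those of Mir3074-1 occur at another hairpin, against 5.17% for Mir23a, 4.29% for Mir27a, 5.26% for Mir23b and 5.36% for Mir27b. Multimapping reads were tallied apart from the gene counts. They were 28.2% (replicate 2) and 28.1% (replicate 1) of reads that were unmapped, multimapping, outside any gene or counted for a gene. Reads of the remaining tally row are not in this total. The multimapping tally is not split by miRNA, so the levels of miR-24 and miR-3074-5p are uncertain and their rows may be low. The same limit touches reads of miR-23 and miR-27 that stop before the base that differs.

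The chromosome 8 hairpins, Mir23a (84208518 to 84208592), Mir27a (84208672 to 84208758) and Mir24-2, lie within 404 bases of each other on the plus strand. Mir23a and Mir27a overlap no annotated gene, and the last 2 bases of Mir24-2 lie in an annotated exon of Gm26532, a long noncoding RNA gene. The chromosome 13 hairpins, Mir23b (63300484 to 63300557), Mir27b (63300712 to 63300784) and Mir24-1, spread over 792 bases within the protein-coding gene 2010111I01Rik, also called Aopep, on the plus strand. Mir23b is intronic there, and Mir27b and Mir24-1 lie in annotated exons of the same gene. Mir3074-1 (63301199 to 63301283) is placed on the minus strand, within an intron of Fancc. In the map of both clusters, the gap between the Mir23 and Mir27 hairpins is 79 bases on chromosome 8 and 154 bases on chromosome 13.

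**Figure D1:**
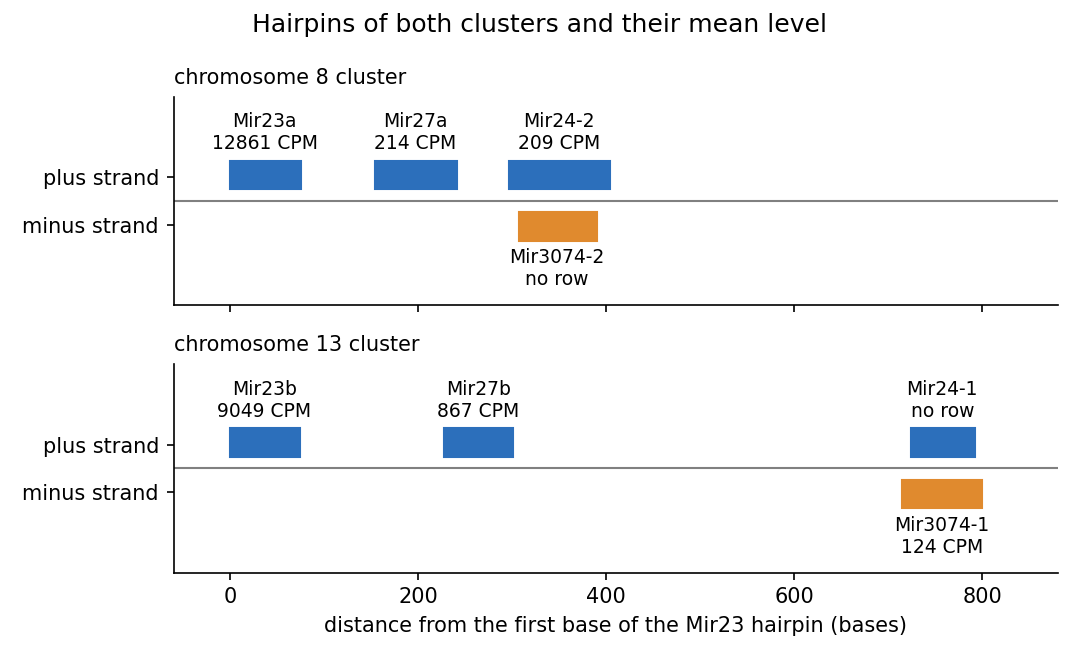
Hairpins of the chromosome 8 cluster (upper panel) and the chromosome 13 cluster (lower panel), drawn to scale by distance in bases from the first base of the Mir23 hairpin. Blue boxes are on the plus strand and orange boxes on the minus strand, each with its mean CPM (counts scaled to an equal total) over 2 libraries. The Mir23 hairpin comes first and has the highest level among the rows of each cluster. Mir24-1 and Mir3074-2 have no row.

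The 6 rows together held 114941 counts in replicate 2 and 143033 in replicate 1. For replicate 2 this is 2.25% of the counts, with an exact Clopper-Pearson 95% interval of 2.24% to 2.27%. For replicate 1 it is 2.41%, with an interval of 2.40% to 2.42%. Such intervals hold counting error alone, as copies made by PCR do not count separate molecules. The Mir23a and Mir23b rows alone held 2.19% ± 0.106 (SD, n = 2) of all counts, and the other 4 rows together 0.141% ± 0.00654. Levels below are in CPM, that is counts scaled to 1 total in each library. They are not divided by hairpin length, because microRNA reads were taken to be of mature strands and not of whole hairpins. The mature strands have 21 to 23 bases in RefSeq, and read lengths were not examined.

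Mir23a was the most abundant of the 6 rows, at 12117 CPM (61826 counts) in replicate 2 and 13604 CPM (80675 counts) in replicate 1. Its mean of 12861 ± 1052 CPM (SD, n = 2) placed it at rank 22 of all 1973 rows. Mir27a, its neighbour 79 bases downstream, was at 209 CPM (1067 counts) in replicate 2 and 218 CPM (1293 counts) in replicate 1, at rank 146. Mir24-2, the last hairpin of the cluster, was at 204 CPM (1039 counts) in replicate 2 and 214 CPM (1272 counts) in replicate 1, at rank 148. Mir27a and Mir24-2 were close together and both far below Mir23a in each library.

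On chromosome 13, Mir23b was at 9043 CPM (46139 counts) in replicate 2 and 9056 CPM (53702 counts) in replicate 1, with a mean of 9049 ± 9.24 CPM and rank 28. Mir27b was at 858 CPM (4380 counts) in replicate 2 and 876 CPM (5193 counts) in replicate 1, with a mean of 867 ± 12.2 CPM and rank 89. Mir3074-1 was at 96.0 CPM (490 counts) in replicate 2 and 151 CPM (898 counts) in replicate 1, with a mean of 124 ± 39.2 CPM and rank 175. Replicate 2 was thus lower for Mir3074-1 and close to replicate 1 for Mir23b and Mir27b.

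**Figure D2:**
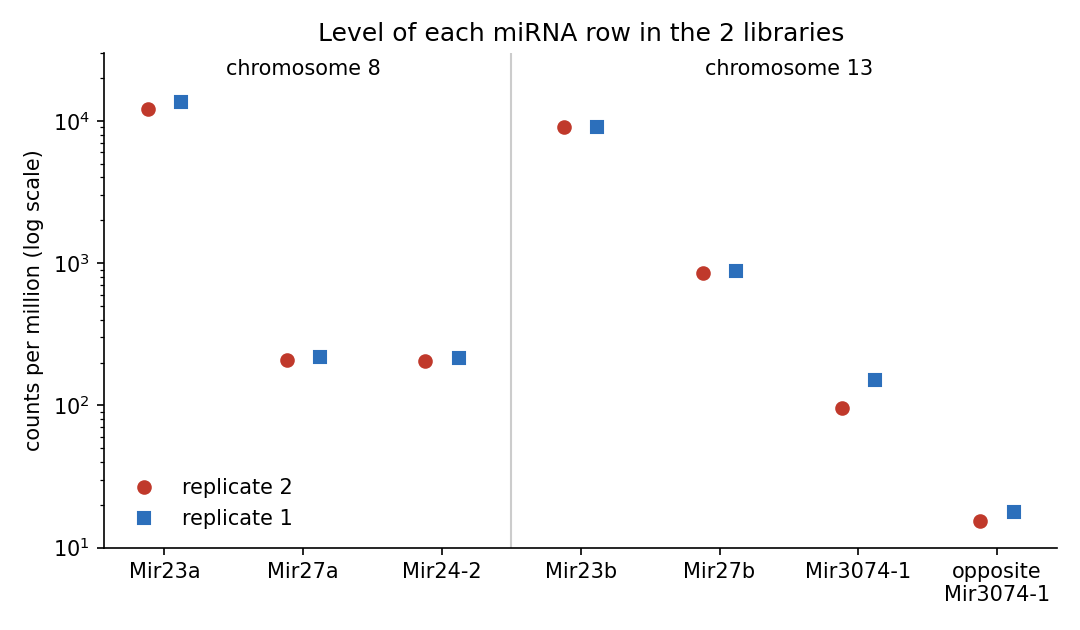
CPM (log scale) of the 6 rows and of the counts on the strand opposite the Mir3074-1 row, with replicate 2 as red circles and replicate 1 as blue squares. Mir23a and Mir23b lie near 12861 and 9049 CPM on average, and the other rows average 867 CPM or lower.

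The order of the levels was Mir23a, Mir23b, Mir27b, Mir27a, Mir24-2, Mir3074-1. The ranges of Mir27a and Mir24-2 overlapped, so these neighbours in the order do not differ beyond their spread. The other neighbours were apart in both libraries. The order of Mir24-2 and Mir3074-1 is that of their rows only, for the reason given above.

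Set against the rest of the table, Mir27a and Mir24-2 were each other's closest match. Likeness was measured as the distance between the log2 CPM values in both libraries over 397 genes at 1 CPM or more, and the distance between them was 0.0451. For Mir23a the closest gene was Mir99a (13284 CPM in replicate 2 and 13997 CPM in replicate 1; distance 0.139). For Mir23b it was Mir15a (distance 0.0408), for Mir27b Mir188 (0.0531) and for Mir3074-1 Mir1306 (0.182). With 2 libraries, a close match says only that the levels are alike. For Mir24-2 and for Mir3074-1 it is the level of a row that may be low.

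Comparing the clusters, the Mir23 genes were nearer in level than the Mir27 genes, and in the opposite order. Mir23a was 1.34-fold above Mir23b in replicate 2 and 1.50-fold above it in replicate 1 (mean log2 ratio 0.50 ± 0.117, SD, n = 2). Mir27a was 4.10-fold below Mir27b in replicate 2 and 4.02-fold below it in replicate 1 (mean log2 ratio -2.02 ± 0.022). The sign of each ratio was the same in both libraries, and each mean was larger than its SD. No p is given, because the smallest two-sided p of an exact sign-flip test on 2 ratios is 0.5.

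The chromosome 8 rows summed to 13283 ± 1066 CPM. The chromosome 13 rows, which include Mir3074-1 and lack Mir24-1, summed to 10040 ± 60.6 CPM. The chromosome 8 sum was higher by 1.25-fold in replicate 2 and by 1.39-fold in replicate 1. The mean log2 ratio was 0.40 ± 0.107 (SD, n = 2). Both sums are nearly all Mir23a and Mir23b, so this order follows that of the Mir23 genes and does not hold for Mir27.

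Within the clusters, the row of the first hairpin held by far the most counts. Mir23a was 57.9-fold above Mir27a in replicate 2 and 62.4-fold above it in replicate 1 (mean log2 ratio 5.91 ± 0.076). It exceeded the Mir24-2 row, which may be low for lack of whole miR-24-3p reads, by 59.5-fold and 63.4-fold, in replicates 2 and 1. Mir23b was 10.5-fold above Mir27b in replicate 2 and 10.3-fold above it in replicate 1 (mean log2 ratio 3.38 ± 0.019). The Mir23 over Mir27 ratio was therefore 5.50-fold higher on chromosome 8 than on chromosome 13 in replicate 2 and 6.03-fold higher in replicate 1 (log2 2.53 ± 0.094).

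Mir27a was 1.03-fold above the Mir24-2 row, with the same limit, in replicate 2 and 1.02-fold above it in replicate 1. This log2 ratio, 0.04 in replicate 2 with a counting SE of 0.063 and 0.02 in replicate 1 with a counting SE of 0.057, was smaller than its counting error. All of these are ratios of counts, and their agreement between libraries does not cover a bias of library making between sequences. The 5′ and 3′ strands of a hairpin are not separated in the counts, so the ratios are of hairpin genes and not of single mature miRNAs.

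**Figure D3:**
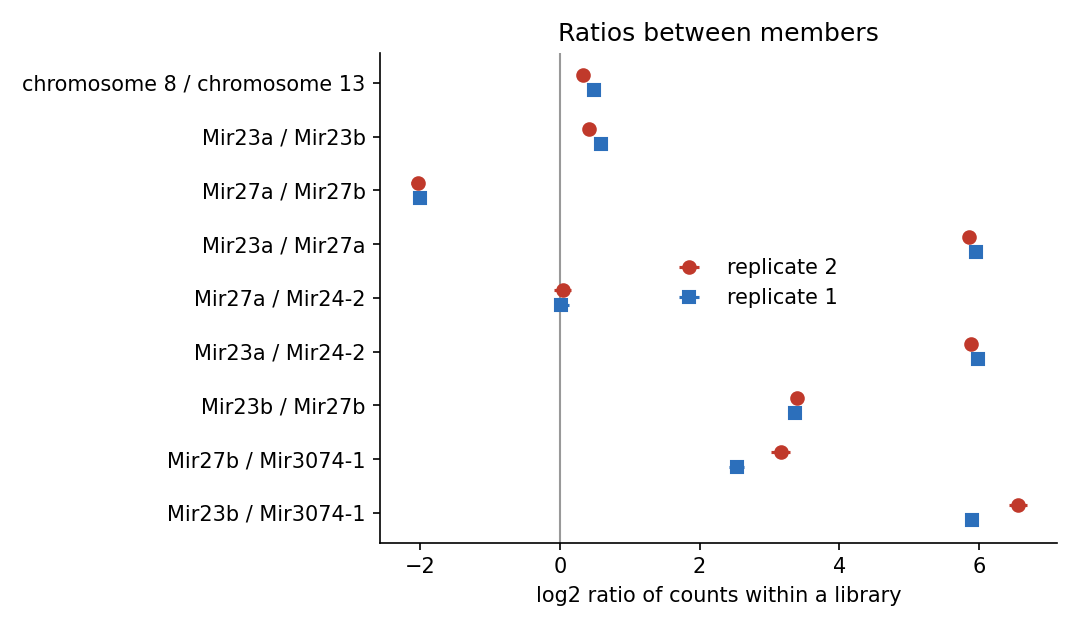
Log2 ratio of counts within each library for the summed rows of the clusters, the paralogs and the neighbours of a cluster. Replicate 2 is shown as red circles and replicate 1 as blue squares. Bars are 95% counting intervals and are mostly hidden by the points. The Mir23 genes stand above the Mir27 genes in both clusters. The Mir27a over Mir27b ratio is below 0 and the Mir23a over Mir23b ratio above 0. The Mir24 paralogs have no ratio, as Mir24-1 has no row.

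Mir3074-1 was the only one of the 6 rows with counts on its other strand, which is the strand of Mir24-1 in the annotation used here. These came to 78 counts in replicate 2 and 105 in replicate 1, that is 13.7% of the counts of that row in replicate 2, with an exact Clopper-Pearson 95% interval of 11.0% to 16.8%. In replicate 1 they were 10.5% of the row, with an interval of 8.64% to 12.5%. On the CPM scale they were at 15.3 in replicate 2 and 17.7 in replicate 1. The Mir24-2 row exceeded them by 13.2-fold and 12.1-fold, in replicates 2 and 1. These folds are not a ratio of Mir24-2 to Mir24-1. Whole reads of the mature strand that Mir24-2 and Mir24-1 share would be tallied as multimapping and counted at neither. The strand of the Mir3074-1 row in the annotation used for counting was also not checked. Over all gene rows, 8.22% of counts in replicate 2 and 8.13% in replicate 1 were on the other strand. Only 38 of 1973 rows had such counts in both libraries, and 17 had at least 50 in both. In 16 rows they outnumbered the own-strand counts in both libraries, so the share over all rows is not a level shared by most rows. The strand opposite Mir24-2, where Mir3074-2 lies, had 0 counts in both libraries. For reads found at 1 place only, this allows up to 0.588 CPM in replicate 2 and up to 0.506 CPM in replicate 1. It sets no limit on Mir3074-2 itself, because whole reads of miR-3074-5p occur at 2 places and would be tallied as multimapping.

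The annotation release used for counting, M4, was not used here, and the version of the Mir3074-1 identifier differs between it and release M21. If M4 placed this row on the plus strand, its main counts would be those of Mir24-1 and the smaller ones those of Mir3074-1. Whole reads of miR-3074-5p, the only mature strand listed for Mir3074-1, occur in 2 hairpins and would be in neither of these counts. Whole reads of miR-24-1-5p, on the plus strand, occur in 1 hairpin. Which mature strand gave the counts was not tested, so they are given by row and not by mature miRNA.

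Between the 2 pools, Mir3074-1 and Mir23a were lower in replicate 2, and the other 4 rows did not pass the test. Mir3074-1 was 1.58-fold lower in replicate 2 (log2 ratio -0.66, counting SE 0.08; two-sided exact binomial test, Benjamini-Hochberg adjusted p = 8.84e-16). Mir23a was 1.12-fold lower (log2 ratio -0.17, counting SE 0.01; adjusted p = 2.81e-103 in the same exact test). Counts on the strand opposite the Mir3074-1 row had a log2 ratio of -0.21 with a counting SE of 0.22.

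Mir24-2 (log2 ratio -0.07, adjusted p = 0.357 in the exact test), Mir27a (-0.06, 0.469) and Mir27b (-0.03, 0.485) did not pass the threshold of 0.05. Mir23b did not pass it either (1.00-fold, exact adjusted p = 0.908). The test weighs counting error alone and compares these 2 libraries, not conditions, and it passes small differences at high counts.

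Of the 6 rows, 2 were called, both lower in replicate 2, where 44.5% of all 440 tested genes were called, 27.0% lower and 17.5% higher. Among the 183 tested genes that averaged at least 100 CPM, as these 6 rows did, 79.2% were called, 50.8% lower and 28.4% higher. With the trimmed mean scaling of edgeR (TMM), 3 of the 6 rows and 194 of the 440 genes were called. The median log2 ratio of the 6 rows was -0.07, and that of all tested genes -0.08. With TMM, the split over all genes moved to 98 lower and 96 higher, against 119 lower and 77 higher by library total. Mir23b then passed the exact test as higher in replicate 2 (log2 0.07, adjusted p = 2.88e-15), while Mir23a (-0.09) and Mir3074-1 (-0.58) stayed lower and called. Mir27a (0.02) and Mir27b (0.05), neither called, changed sign, and Mir24-2, also not called, came to 0.00.

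In size, the Mir23a difference was smaller than that of 109 of the 183 genes that averaged at least 100 CPM, whose median log2 ratio irrespective of sign was 0.20. The Mir3074-1 difference was the largest but 4 of these 183. That of Mir23b was smaller than that of 179 of them. The Mir23a over Mir23b log2 ratio differed by -0.16 between replicates 2 and 1, with a counting SE of 0.012. The Mir27a over Mir27b ratio differed by -0.03 with a counting SE of 0.067.

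**Figure D4:**
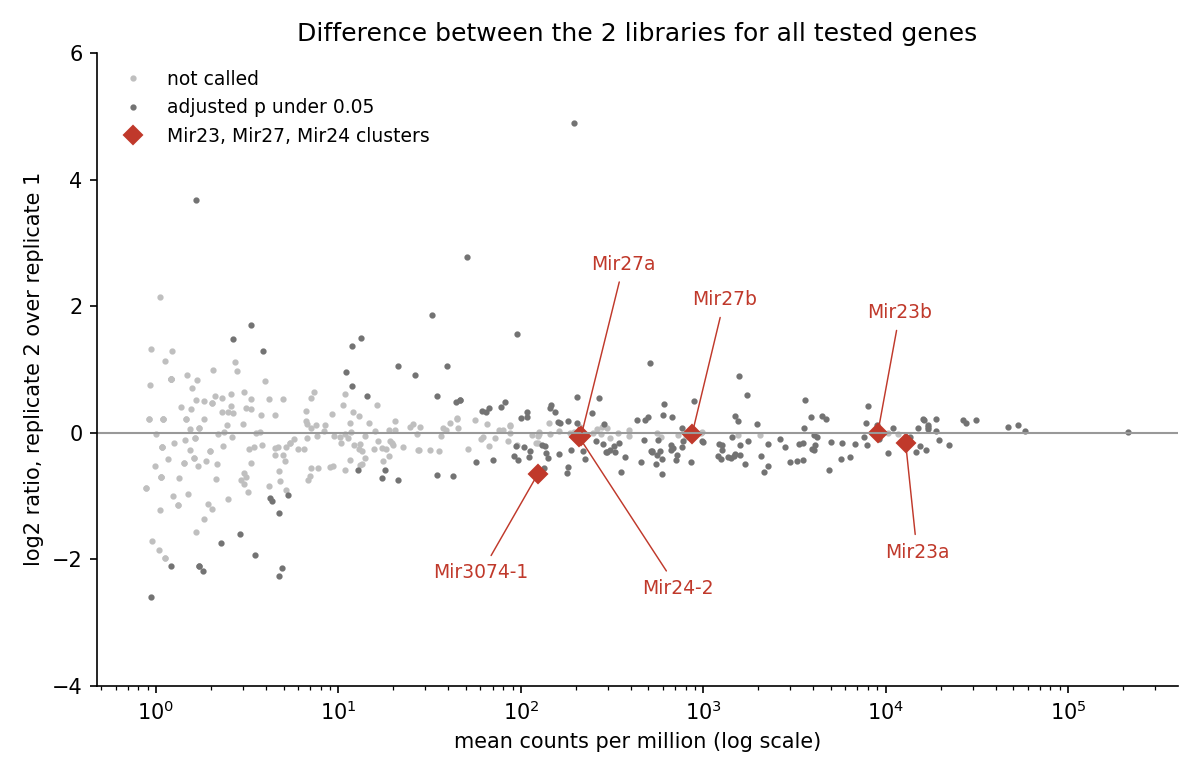
Log2 ratio of replicate 2 over replicate 1 against mean CPM (log scale) for the 440 tested genes, in dark grey where the adjusted p is under 0.05 and light grey elsewhere, with the 6 rows of the Mir23, Mir27 and Mir24 clusters as red diamonds. Mir3074-1 lies at -0.66, and the other 5 lie between -0.17 and 0.

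Markers of cell types were compared between the same libraries, where 17.5% of all 440 tested genes were called higher in replicate 2 and 27.0% lower. Among the 183 tested genes that averaged at least 100 CPM, these shares were 28.4% and 50.8%. The hepatocyte miRNA Mir122, the defining marker of the labelled tissue, was the most abundant row of the table, at 214555 CPM in replicate 2 and at 213274 CPM in replicate 1. The endothelial marker Mir126a was at 48545 CPM in replicate 2 and 45470 CPM in replicate 1 and was called higher in replicate 2. Of the hepatocyte markers, 4 of 5 were called higher and 0 lower, among them Mir122 at a log2 ratio of only 0.01. Their summed level was 222039 CPM in replicate 2 and 219895 CPM in replicate 1. Of the 5 leukocyte markers with a row, 1 was called higher and 0 lower (18736 CPM in replicate 2 and 17989 CPM in replicate 1). Mir142 had no row of that name and is not part of this sum.

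The calls below stand beside the same shares over all genes. Of 3 erythroid markers, 2 were called higher and 1 lower (27152 CPM in replicate 2 and 24071 CPM in replicate 1). All 5 biliary and epithelial markers were called higher (6376 CPM in replicate 2 and 4266 CPM in replicate 1), as were both intestinal ones (427 CPM in replicate 2 and 26.6 CPM in replicate 1). Mir194-1 (log2 ratio 1.85) is in both the hepatocyte and the intestinal list and is counted in each. Of 5 mesenchymal markers tested, 3 were called higher and 1 lower (18247 CPM in replicate 2 and 16177 CPM in replicate 1, for 6 rows). Of 4 muscle markers, 2 were called higher (2257 CPM in replicate 2 and 1300 CPM in replicate 1). Of 4 pancreas markers, 1 was called higher and 1 lower (2105 CPM in replicate 2 and 1395 CPM in replicate 1). No marker with a row was at 0 in both libraries. Reads that fit several places are not in these counts, and which markers this touches was not checked. The part of these markers in the differences of Mir23a and Mir3074-1 was not tested.

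Of 18 named miRNAs known for roles in vessels, Mir126b and Mir378a had no row. Of the 16 tested, 5 were higher, 5 lower and 6 not called, with a median log2 ratio of -0.03. Over all 440 genes, 17.5% were higher and 27.0% lower, with a median of -0.08. Among the 183 tested genes that averaged at least 100 CPM, as most of this list did, 28.4% were higher and 50.8% lower. Mir130a was higher (17800 CPM in replicate 2 and 16428 CPM in replicate 1; exact adjusted p = 1.34e-66) and Mir92-1 lower (2772 CPM in replicate 2 and 3766 CPM in replicate 1; exact adjusted p = 5.50e-181). Of 18 tested miRNAs known for TGF-beta and SMAD signalling, 11 were higher, 1 lower and 6 not called, with a median log2 ratio of 0.14, beside the same shares over all genes. With TMM scaling those shares were nearly even, at 96 genes higher and 98 lower, and the list was not counted again under it. The 5 biliary and epithelial markers are among those 11. For both lists, which miRNAs lose reads that fit several places was not checked. The lower one was Mir29a, known to repress collagens, at 600 CPM in replicate 2 and 724 CPM in replicate 1 (exact adjusted p = 7.23e-15).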

How the data were processed

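MicroRNA libraries of 2 pools of fetal mouse liver were analysed. The authors deposited raw counts per gene on assembly mm10 with GENCODE M4, per the text description deposited with them; the aligner and counter are not stated in the files or labels. The 4 tally rows were left out of totals. Of 3 count columns, the stranded one with the larger total was used, and 1 count equals 0.196 CPM in replicate 2 but 0.169 CPM in replicate 1. The members and lists were chosen with earlier results of these data known. Names and positions came from GENCODE M21 by versionless identifier (1894 of 1973 rows). The identifier version differed in 79 rows, Mir23b, Mir27b and Mir3074-1 among them.

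Genes with 10 or more counts were tested between the libraries by a two-sided exact conditional binomial test in scipy 1.17.1 with Benjamini-Hochberg adjustment; the script was tested on simulated data. With 1 group there is no contrast, so the quasi-likelihood test of edgeR was not run; edgeR 4.0.16 and DESeq2 1.42.0 gave scaling alternatives. Ratios were taken after adding 0.5 to each count. The planned ratio of Mir24-2 to Mir24-1 could not be computed, as Mir24-1 has no row. Named genes were the 7 members, genes opposite them, those sharing a seed, the nearest gene by level, and the lists. Adjusted p-values are from the test across all genes. The 2 pools are labelled biological replicates.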

Additional observations from a re-analysis of the deposited data

Results flagged for a closer look

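The table has counts on the strand opposite the Mir3074-1 row, above the limit of 3 that a count of 0 allows, in a column that the comparisons of levels do not use. There were 78 such counts in replicate 2 and 105 in replicate 1. No other row of the Mir23, Mir27 and Mir24 clusters had any in either library.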

How the results depend on the processing

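The summed share of the members was 2.33% on average, 2.14% with counts irrespective of strand and 2.97% with the most abundant gene left out of the total; these settings enlarge or reduce the total. The Mir23b ratio of replicate 2 over replicate 1 changed sign to 0.07 with TMM scaling and to 0.07 with DESeq2 size factors (exact adjusted p = 2.88e-15 and 3.38e-14), which brought the members called to 3, against 2 by library total. The uncalled ratios of Mir27a (0.02 and 0.01) and Mir27b (0.05 and 0.04) changed sign with the same scalings. That of Mir24-2, also uncalled, came to 0.00 with TMM and -0.00 with DESeq2 size factors. Levels of single rows moved with the total in 9 cases. Counts irrespective of strand cannot move ratios between rows without other-strand counts, that is all but those with Mir3074-1. Leaving out 1 of 2 libraries always moves a mean by less than the SD, so it says nothing of stability; it put the log2 ratio of Mir23b over Mir3074-1 between 5.90 and 6.56, and that of Mir27b over Mir3074-1 between 2.53 and 3.16. No paired analysis was possible because there is 1 group. Reads of miR-24-3p and miR-3074-5p occur at more than 1 place, so depth does not set the precision of their rows.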
